A study of Mus musculus with 10 samples.

Results

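The SOCS family genes were followed in mouse bone marrow–derived macrophages (BMDMs) treated with ligands of TLR7, the endosomal receptor for single-stranded RNA (ssRNA). The family was taken by name as Socs1, Socs2, Socs3, Socs4, Socs5, Socs6, Socs7 and Cish, which are 8 of the 55573 genes in the deposited table. BMDMs were grown from the bone marrow of wild-type (WT) female C57BL/6 mice in medium with MCSF, the macrophage growth factor, and were treated for 4 hours in 5 groups of 2 libraries. A control group received vehicle, and a second group received polyU, which is 5 µg of a synthetic ssRNA of uridines carried by the lipid DOTAP. PNPi+dG/rG stands for 1 µM ulodesine, an inhibitor of the guanosine-degrading enzyme PNP, with 5 µM deoxyguanosine (dG) and 5 µM guanosine (rG). These compounds and polyU together make the group PNPi+dG/rG+polyU, called the joint treatment from here on, and the last group received R848 at 1 ng/mL. R848 is a synthetic imidazoquinoline ligand of TLR7 that works without ssRNA, and it was given at a single dose. MCSF signals through its own receptor and was in the medium of all groups. The labels give no age and do not say whether the vehicle held DOTAP. They call the libraries biological replicates without saying whether these came from separate mice, so p-values measure the spread between these libraries.

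SOCS proteins are feedback brakes on cytokine signaling. A cytokine receptor activates Janus kinases (JAKs), the kinases phosphorylate STAT proteins, and the STATs enter the nucleus and turn on genes that include some of the SOCS genes themselves. Each SOCS protein holds an SH2 domain, which binds phosphorylated tyrosines, and a SOCS box, which joins elongins and the scaffold Cul5 to form a ubiquitin ligase that marks bound proteins for destruction. SOCS1 and SOCS3 also carry a short stretch that blocks the JAK active site. In macrophages SOCS1 is known as a brake on interferon and SOCS3 as a brake on IL-6 signaling.

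The libraries held from 14128123 to 38392588 reads on genes, and 3 reads, taken as the smallest detectable amount, were worth from 0.0781 to 0.212 CPM (read counts scaled to an equal total in each library). All 9 listed macrophage markers, among them Adgre1, Csf1r and Lyz2, were expressed in every library, at a summed 15210 to 18260 CPM. The 4 listed fibroblast markers (Col1a1, Col1a2, Pdgfra and Dcn) summed to 96.1 and 102 CPM in the R848 libraries and to between 0.281 and 1.02 CPM in the other 8. The 4 endothelial markers (Pecam1, Cdh5, Kdr and Vwf) summed to between 207 and 246 CPM with vehicle, polyU or PNPi+dG/rG, to 143 CPM in both libraries of the joint treatment and to 64.5 and 69.8 CPM with R848. The summed markers of T, B, NK and dendritic cells and of neutrophils stayed at or below 1.83 CPM. Both R848 libraries therefore stand apart in the fibroblast markers. The source of these transcripts and its part in the R848 results were not tested. In RNA from bulk cultures, a change in the number of cells of a type and a change in RNA per cell cannot be told apart.

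RefSeq promoter entries on GRCm38.p6 were at hand for 4 of the 8 members (Socs1, Socs3, Socs4 and Cish), each covering 250 bases before and 50 bases after the start of the gene. They were searched on both strands for TTCNNNGAA, the letters of a STAT site, GAAANNGAAA, which resembles a site for interferon-regulated factors, GGGNNNTTCC, one form of an NF-κB site, and TGANTCA, an AP-1 site. Of the 32851 promoters in the table, 8.30% held the STAT letters, 3.44% the tandem GAAA letters, 5.56% the NF-κB letters and 7.81% the AP-1 letters. Cish and Socs3 held STAT letters, Socs1 held the tandem GAAA letters, and Socs4 held none of the 4. The stretches with a match in the 3 genes that rose most are printed 5′ to 3′ on the strand of the gene, with matches in capitals. The RefSeq start is the GENCODE gene start for Socs1, but it lies 681 bases into the GENCODE gene for Socs3 and 633 bases into it for Cish, so that the matches of these 2 genes lie inside the gene positions given with their values. A match is a description of the letters and was not tested as a bound site.

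In Cish (chr9:107296654-107296683, plus strand), TTCCTGGAA begins at the base where the RefSeq gene starts and TTCTTGGAA begins at base 12:
Cish: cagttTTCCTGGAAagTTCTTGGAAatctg

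In Socs3 (chr11:117969457-117969616, minus strand), TTCTTAGAA begins 154 bases before the RefSeq start and 527 bases after the GENCODE one:
Socs3: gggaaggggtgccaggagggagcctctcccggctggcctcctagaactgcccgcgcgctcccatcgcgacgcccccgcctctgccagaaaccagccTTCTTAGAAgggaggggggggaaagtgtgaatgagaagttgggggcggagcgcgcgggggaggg

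In Socs1 (chr16:10785537-10785786, minus strand), GAAAGAGAAA begins 83 bases and GAAACCGAAA 77 bases before the start, and the matches overlap:
Socs1: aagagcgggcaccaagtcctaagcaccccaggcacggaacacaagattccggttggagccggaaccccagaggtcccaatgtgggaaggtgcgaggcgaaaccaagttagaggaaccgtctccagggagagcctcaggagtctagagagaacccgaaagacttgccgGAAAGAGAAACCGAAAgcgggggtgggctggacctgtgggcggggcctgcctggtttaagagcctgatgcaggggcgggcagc

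Socs1 and Socs3, the members that inhibit JAKs directly, rose with polyU and rose far more with the joint treatment or R848. Socs1 (ENSMUSG00000038037, chromosome 16, 10782240 to 10785536, minus strand, GRCm38) had 2.69 and 2.08 CPM in the vehicle libraries, 12.2 and 13.5 with polyU, 3.00 and 2.94 with PNPi+dG/rG, 117 and 127 with the joint treatment, and 96.7 and 106 with R848. No library of polyU, the joint treatment or R848 overlapped with the vehicle libraries. The rise was 5.42-fold with polyU (log2 fold change 2.44, standard error 0.12, adjusted p = 4.45e-10), 51.4-fold with the joint treatment (5.68, adjusted p = 1.46e-15) and 42.8-fold with R848 (5.42, adjusted p = 9.65e-16). With PNPi+dG/rG alone both libraries lay above both vehicle libraries, but the difference of 0.33 did not pass the test (adjusted p = 0.342), and it was 0.51 without vehicle replicate 1 (adjusted p = 0.0765) and 0.14 without vehicle replicate 2 (adjusted p = 0.793).

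Socs3 (ENSMUSG00000053113, chromosome 11, 117966079 to 117970047, minus strand) moved over the widest range of the family. Its values were 4.60 and 3.82 CPM with vehicle, 42.3 and 44.4 with polyU, 6.46 and 10.6 with PNPi+dG/rG, 1963 and 2007 with the joint treatment, and 2023 and 2152 with R848. The libraries of polyU lay about an order of magnitude above vehicle, and those of the last 2 groups lay well above polyU. The fold was 10.3 with polyU (log2 3.37, standard error 0.23, adjusted p = 0.000142), 473 with the joint treatment (8.89, adjusted p = 4.13e-07) and 498 with R848 (8.96, adjusted p = 2.34e-07). Among the 11978 tested genes, ordered by their rise, Socs3 stood at place 65 with the joint treatment and at place 144 with R848. Genes with 0 reads in a vehicle library enter this order with folds set by the offset of 0.0001 CPM in the deposited values. An example is Il6, at log2 15.1 with the joint treatment and 16.8 with R848. The places thus depend on that offset and do not rank Socs3 between the 2 treatments. For PNPi+dG/rG alone the fold of 1.97 did not pass the test (log2 0.98, 95% interval 0.39 to 1.56, adjusted p = 0.251). It rested on unequal libraries, at 1.33 without PNPi+dG/rG replicate 1 (adjusted p = 3.56e-06) and 0.62 without replicate 2 (adjusted p = 0.0151), and each of these fits, which take the lone library to vary like the other groups, called it.

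**Figure D1:**
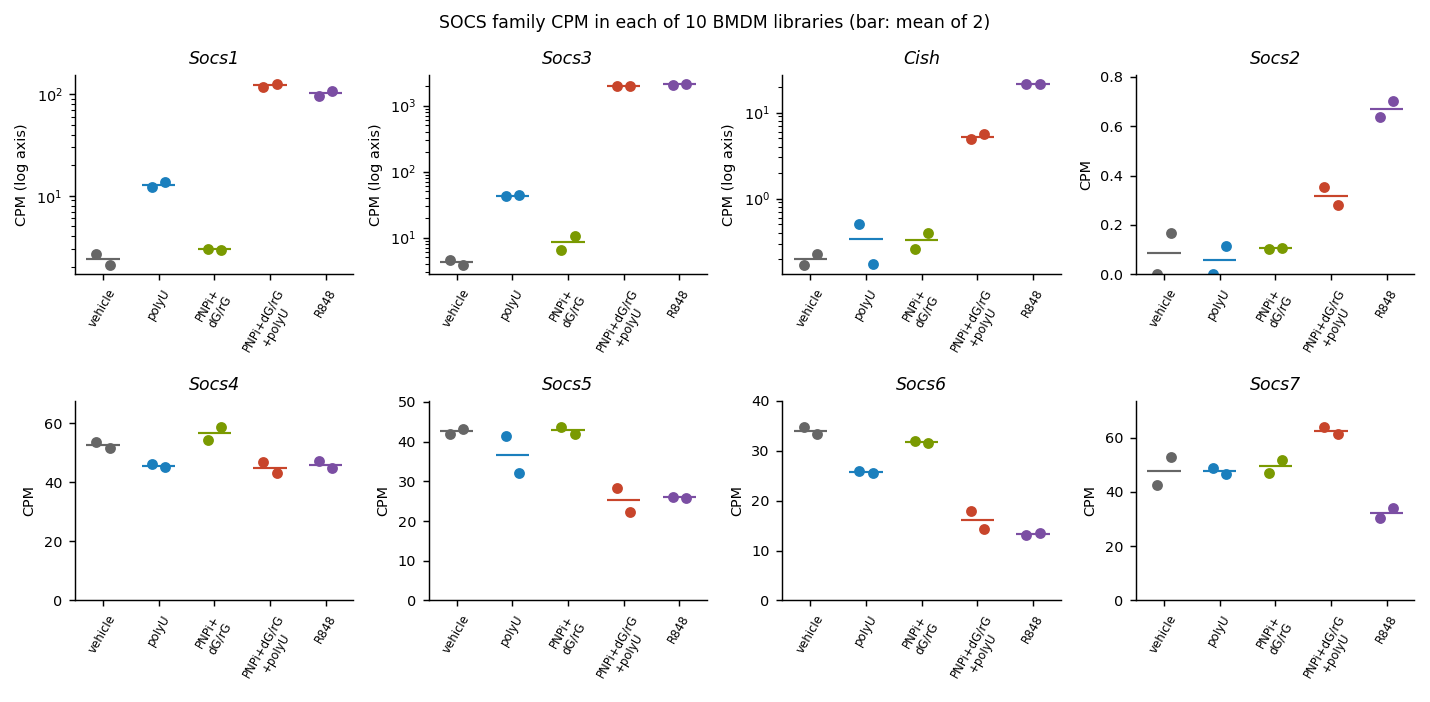
CPM of each SOCS family gene (1 panel a gene) in the 10 libraries, with a point for each library and a bar for the mean of 2; the axis is logarithmic for Socs1, Socs3 and Cish and linear for the others. Socs1 and Socs3 climb from vehicle through polyU to PNPi+dG/rG+polyU and R848, Cish is highest with R848, and Socs7 is high with PNPi+dG/rG+polyU and low with R848.

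Cish, which encodes CIS, a protein that occupies receptor sites used by STAT5, was nearly silent except with the strong ligands. Cish (ENSMUSG00000032578, chromosome 9, 107296026 to 107302784, plus strand) had 0.168 and 0.225 CPM with vehicle, 0.511 and 0.174 with polyU, 0.260 and 0.401 with PNPi+dG/rG, 4.88 and 5.63 with the joint treatment, and 21.7 and 21.6 with R848. The vehicle values rest on 3 and 4 reads, so the size of the folds is known only within the counting error. From pooled reads the ratio to vehicle was 26.8 for the joint treatment (exact 95% counting interval 12.7 to 67.7) and 110 for R848 (53.2 to 274). In the fit Cish rose by 4.75 on the log2 scale with the joint treatment (standard error 0.44, adjusted p = 1.12e-07) and by 6.80 with R848 (adjusted p = 7.49e-10). With polyU 1 library lay between the vehicle libraries and the other above them, and the difference of 0.62 did not pass (adjusted p = 0.298). That value was 1.39 without polyU replicate 2 (adjusted p = 0.0167) and -0.16 without polyU replicate 1. Antisense transcripts annotated over Cish, Gm17040 and Gm17041, were at or near 0 in all libraries.

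Socs2, a brake on growth hormone signaling, stayed at the edge of detection. Socs2 (ENSMUSG00000020027, chromosome 10, 95385362 to 95417180, minus strand) had 0 and 3 reads with vehicle, 0 and 2 with polyU, 4 and 4 with PNPi+dG/rG, 5 and 4 with the joint treatment, and 12 and 23 with R848. These reads are worth 0.637 and 0.704 CPM with R848 and at most 0.354 CPM in any other library. It did not reach 1 CPM in 2 libraries and was the only member left out of the fit. From pooled reads its ratio to vehicle was 8.07 for R848 (2.54 to 41.0) and 3.77 for the joint treatment (0.941 to 21.7), so that the interval reaches below 1 in the latter. These intervals cover counting error only. In a limma fit without a filter, the R848 difference from vehicle did not pass (log2 7.35, standard error 3.59, adjusted p = 0.145). Vehicle replicate 1 and polyU replicate 1 had 0 reads, so the offset in the deposited values set their log2 values. The difference and its standard error thus depend on that offset, and this fit cannot decide whether Socs2 rose with R848. Both R848 libraries lay above the other 8, and these are the libraries with fibroblast markers.

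Socs4 and Socs5, linked to signaling of the EGF receptor, were already expressed with vehicle. Socs4 moved little, and its direction with R848 depended on the scaling. Socs4 (ENSMUSG00000048379, chromosome 14, 47276931 to 47296102, plus strand) had 53.7 and 51.6 CPM with vehicle, 46.1 and 45.2 with polyU, 54.5 and 58.8 with PNPi+dG/rG, 46.9 and 43.2 with the joint treatment, and 47.1 and 45.0 with R848. All 6 libraries that received polyU or R848 lay below vehicle. It fell by 0.21 on the log2 scale with polyU (adjusted p = 0.0211), by 0.23 with the joint treatment (adjusted p = 0.00656) and by 0.19 with R848 (adjusted p = 0.0139), or 1.14- to 1.17-fold. These small calls were lost when single libraries were left out, at -0.18 with polyU and -0.16 with R848 without vehicle replicate 1, -0.19 with polyU without polyU replicate 2, -0.17 without PNPi+dG/rG+polyU replicate 2, and -0.16 without R848 replicate 2. The median tested gene also moved, by -0.22 with the joint treatment and by -0.50 with R848, so relative to that median Socs4 stood at -0.0047 and at 0.31. With libraries centred on their median gene, Socs4 was higher with R848 than with vehicle (0.40, adjusted p = 4.74e-05) and not called with the joint treatment (adjusted p = 0.854).

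Socs5 (ENSMUSG00000037104, chromosome 17, 87107679 to 87137839, plus strand) had 42.0 and 43.3 CPM with vehicle, 41.3 and 32.1 with polyU, 43.7 and 41.9 with PNPi+dG/rG, 28.4 and 22.2 with the joint treatment, and 26.1 and 25.9 with R848. The last 2 groups lay below all other libraries and overlapped with each other. The fall was 1.70-fold with the joint treatment (log2 -0.77, standard error 0.12, adjusted p = 0.000111) and 1.64-fold with R848 (-0.71, adjusted p = 0.000137). Relative to the median gene these were -0.54 and -0.21, and with centred libraries the R848 difference was -0.12 and no longer called (adjusted p = 0.358). The polyU libraries were unequal, and the difference of -0.23 did not pass (adjusted p = 0.166). Without polyU replicate 1 it was -0.41 (adjusted p = 0.0156).

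Socs6, which binds the stem cell factor receptor KIT, fell with each treatment that held polyU or R848. Socs6 (ENSMUSG00000056153, chromosome 18, minus strand) had 34.8 and 33.3 CPM with vehicle, 26.0 and 25.6 with polyU, 31.9 and 31.5 with PNPi+dG/rG, 17.9 and 14.4 with the joint treatment, and 13.1 and 13.4 with R848. No treated library overlapped with vehicle, although the gap was small for PNPi+dG/rG alone (-0.10, adjusted p = 0.844). The fall was 1.32-fold with polyU (log2 -0.40, standard error 0.10, adjusted p = 0.00372), 2.12-fold with the joint treatment (-1.08, adjusted p = 6.19e-08) and 2.57-fold with R848 (-1.36, adjusted p = 2.05e-09). Relative to the median gene Socs6 was lower by the same amount in the last 2 groups, at -0.86 each.

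Socs7, which has been tied to insulin signaling, was the member that stood apart most between the strong ligands besides Cish, although its fall with R848 was lost once libraries were centred on their median gene. Socs7 (ENSMUSG00000038485, chromosome 11, 97362551 to 97398542, plus strand) had 42.6 and 52.8 CPM with vehicle, 48.9 and 46.7 with polyU, 47.1 and 51.7 with PNPi+dG/rG, 63.9 and 61.1 with the joint treatment, and 30.4 and 34.0 with R848. The libraries of the joint treatment lay above all others and the R848 libraries below all others. It rose 1.32-fold with the joint treatment (log2 0.40, standard error 0.09, adjusted p = 0.00148) and fell 1.48-fold with R848 (-0.56, adjusted p = 5.14e-05). Relative to the median gene the values were 0.62 and -0.06, and with centred libraries the difference from vehicle was 0.03 with R848 (adjusted p = 0.742) and 0.61 with the joint treatment, which was again called. The fall with R848 thus depended on the scaling.

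Per kilobase of exon, the order of the family changed with the ligand. The length was that of all annotated exons of a gene with overlaps counted once, from 2891 bases for Socs3 to 11349 for Socs6. With vehicle the mean levels in CPM per kb were 7.65 ± 0.218 for Socs4, 6.65 ± 0.136 for Socs5 and 6.57 ± 0.990 for Socs7 (SD, n = 2 here and after), and Socs5 and Socs7 did not differ beyond their spread. Socs6 followed at 3.00 ± 0.0918, Socs3 at 1.46 ± 0.191 and Socs1 at 0.821 ± 0.149, with Cish at 0.0306 and Socs2 at 0.00884 CPM per kb. Socs1, Socs3 and Cish, which rose with the strong ligands, were thus among the 4 lowest members with vehicle. With the joint treatment, Socs3 led at 687 ± 10.7, ahead of Socs1 at 41.8 ± 2.50, Socs7 at 8.61 ± 0.271 and Socs4 at 6.55 ± 0.377. R848 gave 722 ± 31.7 for Socs3 and 34.9 ± 2.26 for Socs1, then 6.70 ± 0.212 for Socs4, 4.43 ± 0.358 for Socs7 and 4.05 ± 0.0187 for Socs5, the latter pair apart by about the SD of Socs7. By this length, Cish, at 3.37 ± 0.0122 CPM per kb with R848, passed Socs6 (1.17 ± 0.0236) in that group only. The length was 6419 bases for Cish, and a shorter transcript in use would raise its level per kb. Which transcripts were in use was not tested, so the places hold for the annotated length only. Socs3 made up 4.98% and 6.16% of the summed CPM per kb of the family with vehicle, 35.7% and 38.1% with polyU, 8.17% and 12.3% with PNPi+dG/rG, 91.6% in both libraries of the joint treatment and 93.0% in both R848 libraries.

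The comparisons with vehicle ask which members respond to each treatment, and they share the vehicle libraries. With polyU, 2 of the 7 tested members were higher (Socs1 and Socs3) and 2 lower (Socs4 and Socs6), where 20.6% of all tested genes were higher and 18.7% lower. PNPi+dG/rG alone changed 0 of 7 members in limma, where 0.409% of all tested genes were higher and 0.392% lower. Socs1 and Socs3 had unadjusted limma p-values of 0.0154 and 0.00721, and 1076 of the 11978 tested genes had an unadjusted p under 0.05. With the joint treatment, 4 members were higher (Socs1, Socs3, Socs7 and Cish) and 3 lower (Socs4, Socs5 and Socs6), against 22.2% and 46.7% of all genes. R848 raised 3 (Socs1, Socs3 and Cish) and lowered 4 (Socs4 to Socs7), against 19.2% and 62.9%. All 7 tested members were called in each of the last 2 comparisons, in which most tested genes were called too. With centred libraries the members split 4 higher and 2 lower with the joint treatment and, with Socs4 turned to higher, 4 higher and 1 lower with R848, while all genes split 3979 to 3973 and 5146 to 4150 in place of 2660 to 5594 and 2300 to 7535. Centring left the members' counts with polyU and PNPi+dG/rG as they were, while all genes went from 2467 higher and 2242 lower to 2063 and 2732 with polyU and from 49 and 47 to 36 and 96 with PNPi+dG/rG. The median log2 fold change of the members was 0.01 with polyU, 0.11 with PNPi+dG/rG, 0.40 with the joint treatment and -0.19 with R848, beside 0.02, 0.02, -0.22 and -0.50 over all tested genes.

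**Figure D2:**
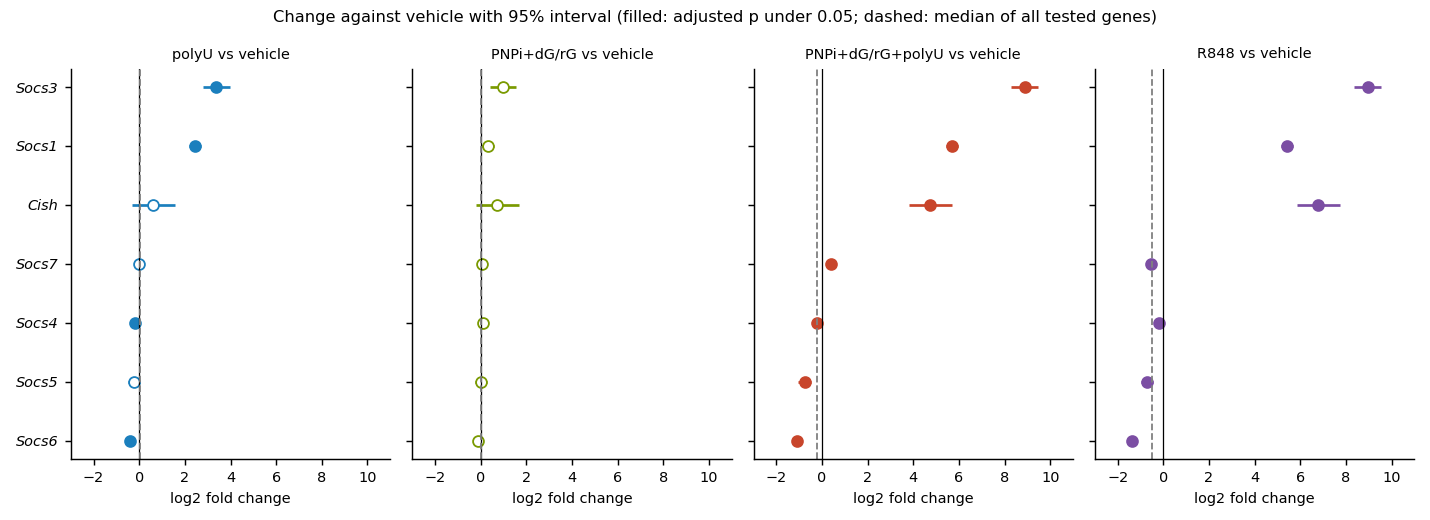
Log2 fold change against vehicle of the 7 tested SOCS family genes in the 4 treatments, with 95% intervals from limma; filled points have an adjusted p under 0.05 and the dashed line is the median of all tested genes. Socs3, Socs1 and Cish lie far to the right with PNPi+dG/rG+polyU and R848, while Socs4 to Socs7 stay between -1.36 and 0.40.

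The addition of PNPi+dG/rG to polyU asks what the inhibitor and the guanosines together add to ssRNA. No group held polyU with only the inhibitor or only dG and rG, so their parts cannot be told apart. Against polyU alone, Socs3 was a further 45.8-fold higher (log2 5.52, standard error 0.23, adjusted p = 5.79e-06), Cish 17.6-fold (4.13, adjusted p = 8.67e-07) and Socs1 9.47-fold (3.24, adjusted p = 2.32e-12). Socs7 rose 1.31-fold (adjusted p = 0.0021), Socs5 fell 1.45-fold (adjusted p = 0.00202) and Socs6 fell 1.61-fold (adjusted p = 1.64e-05). Thus 4 members were higher and 2 lower, where 15.8% of all tested genes were higher and 47.5% lower. Socs4 did not pass (log2 -0.02, 95% interval -0.16 to 0.12). With centred libraries 5 were higher, Socs4 included (0.23), and 1 lower, as Socs5 was lost (-0.28, adjusted p = 0.0556), while all genes split 3604 to 3035 in place of 1897 to 5685.

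The interaction, which is the effect of PNPi+dG/rG in the presence of polyU minus its effect without polyU, tests whether the pair does more than its separate effects added on the log2 scale. Socs3 had an interaction of 4.54 (standard error 0.33, adjusted p = 0.000129), Cish of 3.40 (0.63, adjusted p = 0.000366) and Socs1 of 2.92 (0.17, adjusted p = 1.43e-09). For these genes the joint treatment was thus 23.2-, 10.6- and 7.55-fold above the product of the separate folds. Socs6 was below that product (-0.58, adjusted p = 0.00249), as was Socs5 (-0.54, adjusted p = 0.0197), and Socs7 was slightly above it (0.33, adjusted p = 0.047). Of the members 4 were called higher and 2 lower, against 11.8% and 38.9% of all tested genes. With centred libraries the same 4 were higher and 0 were lower in limma, with Socs5 at -0.26 (adjusted p = 0.245) and Socs6 at -0.29 (adjusted p = 0.0985), and all genes split 2888 to 2037 in place of 1415 to 4654. The Socs5 interaction was lost in 4 of the fits that left out 1 library, at -0.52 without vehicle replicate 1, -0.36 without polyU replicate 1, -0.51 without PNPi+dG/rG replicate 1 and -0.37 without PNPi+dG/rG+polyU replicate 2. That of Socs7 was lost in 6, namely 0.18 without vehicle replicate 2, 0.36 and 0.30 without polyU replicate 1 and 2, 0.26 without PNPi+dG/rG replicate 1, and 0.30 and 0.36 without PNPi+dG/rG+polyU replicate 1 and 2.

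The comparison of the joint treatment with R848 asks whether the natural coligands and the synthetic ligand act alike at the doses used. Cish was 4.12-fold lower with the joint treatment (log2 -2.04, 95% interval -2.99 to -1.10, adjusted p = 0.000724). Socs7 was 1.94-fold higher (0.96, interval 0.76 to 1.16, adjusted p = 3.42e-07), and it stayed higher with centred libraries (0.58, adjusted p = 4.27e-05). The other call was Socs6, 1.21-fold higher (0.28, adjusted p = 0.0175), which was 0.12 and not called without PNPi+dG/rG+polyU replicate 1 (adjusted p = 0.263), 0.26 without R848 replicate 1 (adjusted p = 0.0744) and -0.10 with centred libraries. So 2 of 7 members were higher and 1 lower, where 53.9% of all tested genes were higher and 16.9% lower. Socs1 differed by 0.26 (interval 0.01 to 0.52, adjusted p = 0.0613) and Socs3 by -0.07 (interval -0.66 to 0.51, adjusted p = 0.799), so that folds from 0.633 to 1.43 lie within the interval for Socs3. With centred libraries Socs1 differed by -0.12. Socs4 and Socs5 differed by -0.03 (interval -0.17 to 0.11) and -0.05 (interval -0.32 to 0.21). With centred libraries the split was 1 higher (Socs7) and 3 lower (Cish, Socs4 and Socs5), and that of all genes 3397 to 4486 in place of 6451 to 2022. The fibroblast markers separate the same libraries, and their part in the Cish and Socs7 differences was not tested.

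**Figure D3:**
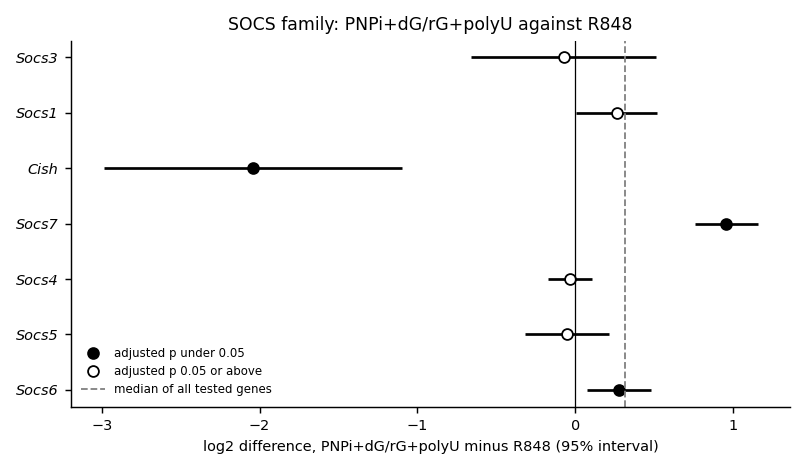
Log2 difference of PNPi+dG/rG+polyU minus R848 for the 7 tested SOCS family genes with 95% intervals; filled points have an adjusted p under 0.05 and the dashed line is the median of all tested genes at 0.31. Cish lies to the left at -2.04 and Socs7 to the right at 0.96, while the intervals of Socs3, Socs4 and Socs5 include 0.

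R848 against polyU alone sets the synthetic ligand beside ssRNA. Cish was 72.3-fold higher with R848 (log2 6.18, adjusted p = 2.66e-09), Socs3 48.1-fold (5.59, adjusted p = 2.36e-06) and Socs1 7.89-fold (2.98, adjusted p = 1.9e-12). Socs6 was 1.95-fold, Socs7 1.49-fold and Socs5 (log2 -0.49) also lower, and Socs4 differed by 0.01 (adjusted p = 0.848). These 3 higher and 3 lower members stand beside 18.0% and 64.6% of all tested genes. With centred libraries Socs4 joined the higher members (0.65) and only Socs6 remained lower, and all genes split 4990 to 4153 in place of 2162 to 7739.

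The genes through which the SOCS proteins act were counted from lists of the JAK-STAT pathway. Each list count stands against 22.2% higher and 46.7% lower among all tested genes with the joint treatment, and 19.2% and 62.9% with R848. Counts with centred libraries stand against 3979 higher and 3973 lower of 11978 tested genes with the joint treatment, and 5146 and 4150 with R848. All 4 JAKs were tested, and 3 were higher and 1 lower with the joint treatment than with vehicle, while all 4 were higher with R848 (median log2 fold changes 0.68 and 0.76). Jak2, the kinase of the growth hormone and many cytokine receptors, had 49.8 ± 1.82 CPM with vehicle, 77.7 ± 0.379 with polyU, 53.6 ± 0.878 with PNPi+dG/rG, 430 ± 13.0 with the joint treatment and 774 ± 6.90 with R848. It rose by 3.11 (adjusted p = 7.95e-17) and 3.96 (adjusted p = 1.76e-18) in the last 2 groups. Tyk2, a kinase of the interferon receptor, went from 93.5 ± 4.37 to 179 ± 2.87 CPM with the joint treatment and 155 ± 6.07 with R848. Jak1 fell by 0.11 with the joint treatment (adjusted p = 0.0306) but was higher with centred libraries (0.10, adjusted p = 0.0288), which made all 4 JAKs higher, and it rose by 0.56 with R848 (adjusted p = 3.95e-09).

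Among 6 listed STATs, 3 were higher and 1 lower with the joint treatment, and 3 higher and 2 lower with R848, or 4 higher and 1 lower with R848 in centred libraries. Stat2, which carries interferon signals, had 97.1 ± 4.60 CPM with vehicle, 374 ± 32.0 with polyU, 519 ± 12.7 with the joint treatment and 165 ± 20.3 with R848. Between the joint treatment and R848 it differed by 1.66 (adjusted p = 2.22e-09). Stat3, the STAT of IL-6, went the other way, with 113 ± 4.99 CPM with vehicle, 185 ± 6.14 with the joint treatment and 442 ± 16.6 with R848, a difference of -1.26 between the last 2 groups (adjusted p = 7.9e-12). Stat5a, whose protein signals for many growth factors and is held back by CIS, rose from 24.5 ± 0.494 to 44.6 ± 4.50 and 51.9 ± 2.33 CPM, while Stat6, the STAT of IL-4, fell from 343 ± 14.4 to 217 ± 5.83 and 184 ± 3.29 CPM.

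**Figure D4:**
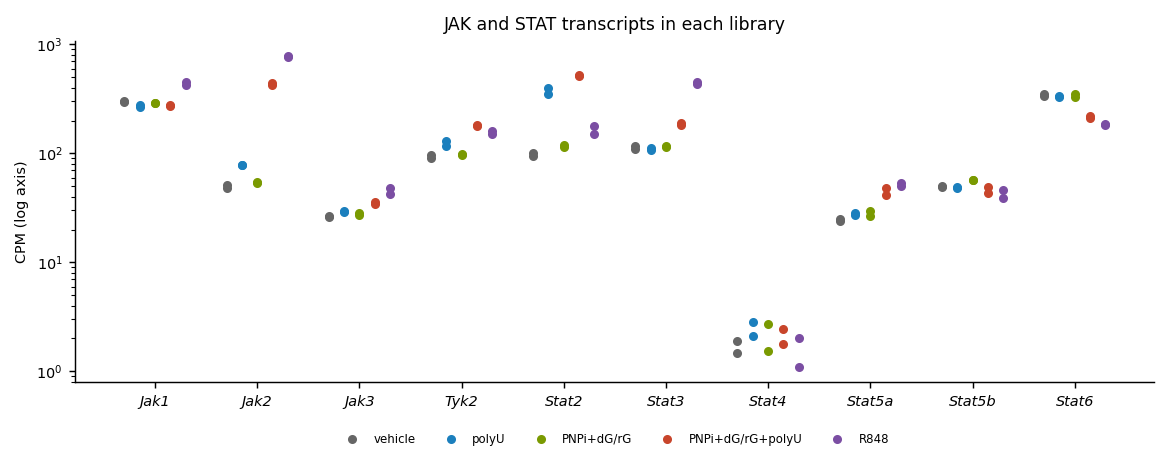
CPM on a logarithmic axis of 4 JAK and 6 STAT genes, with a point for each of the 10 libraries coloured by group. Jak2 and Stat3 are highest with R848, Stat2 is highest with PNPi+dG/rG+polyU and raised with polyU, and Stat6 is lowest with R848.

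Of 20 listed cytokines that signal through JAKs, 14 were tested, and 11 were higher and 0 lower in limma with the joint treatment, 13 higher and 0 lower with R848, and 5 higher and 0 lower with polyU, against 22.2% and 46.7%, 19.2% and 62.9%, and 20.6% and 18.7% of all tested genes. Centring left the counts with the joint treatment and R848 as they were. Il15, a cytokine for NK cells, had 5.90 ± 0.551 CPM with vehicle, 32.8 ± 0.506 with the joint treatment and 15.7 ± 0.0514 with R848. Il6 was at 0.0561 and 0 CPM with vehicle, 81.9 ± 7.73 with the joint treatment and 272 ± 10.5 with R848, and Lif, a cytokine of the IL-6 family, reached 0.882 ± 0.154 and 20.8 ± 0.585 CPM.

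Of 30 listed receptors 25 were tested, and 9 were higher and 9 lower with the joint treatment, and 11 higher and 12 lower with R848. With centred libraries these splits were 12 to 9 and 16 to 5. Csf3r, the receptor of G-CSF and a known target of SOCS3, rose from 25.0 ± 2.56 to 148 ± 22.5 and 173 ± 9.64 CPM. Kit, the receptor that SOCS6 binds, fell from 14.0 ± 0.251 to 2.29 ± 0.758 and 0.782 ± 0.280 CPM. Il12rb2, a subunit of the IL-12 receptor, was at 17.6 ± 0.461 CPM with vehicle and 16.7 ± 1.72 with the joint treatment, but fell to 2.92 ± 0.757 with R848 (log2 -2.61, adjusted p = 1.48e-10). Egfr was at 1.18 ± 0.239, 1.45 ± 0.0562 and 3.57 ± 0.204 CPM, and it rose with R848 (adjusted p = 8.66e-05), in the libraries that hold fibroblast markers.

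Other brakes on cytokine signaling were split in direction. Of the 13 listed, all tested, 6 were higher and 5 lower with the joint treatment, and 7 higher and 5 lower with R848, or 8 to 5 and 9 to 3 with centred libraries. Usp18, a brake on the interferon receptor, had 24.1 ± 7.44 CPM with vehicle, 113 ± 9.99 with polyU, 253 ± 9.33 with the joint treatment and 147 ± 23.7 with R848. Ptpn1, a phosphatase that acts on JAK2 and TYK2, rose from 164 ± 2.97 to 247 ± 13.8 and 528 ± 18.7 CPM with the joint treatment and R848. Cblb, a ubiquitin ligase, fell from 206 ± 3.63 to 65.5 ± 3.98 and 39.8 ± 3.05 CPM.

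The machinery that the SOCS box recruits held 7 listed genes, of which 5 were higher and 0 lower in limma with the joint treatment, and 3 higher and 2 lower with R848. Their median log2 fold changes were 0.30 and -0.05, and with centred libraries 6 and all 7 were higher. Ube2f, the enzyme that attaches NEDD8 to Cul5, rose from 39.8 ± 1.63 to 90.4 ± 3.20 and 98.0 ± 1.61 CPM. Cul5 itself had 48.8 ± 0.917, 44.0 ± 1.29 and 42.0 ± 0.321 CPM, which was lower with R848 as deposited (-0.22, adjusted p = 0.0113) and higher with centred libraries (0.38, adjusted p = 0.000115). Rnf7, the RING subunit of that ligase, was at 30.7 ± 2.95, 30.9 ± 3.56 and 25.2 ± 0.540 CPM, and its R848 difference turned in the same way (-0.28 as deposited, 0.31 centred).

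Of 26 further SOCS box genes 13 were tested, with 3 higher and 5 lower with the joint treatment and 3 higher and 8 lower with R848, or 5 to 3 and 6 to 4 with centred libraries. Wsb1 rose from 138 ± 3.90 to 199 ± 3.53 and 215 ± 0.333 CPM, and Spsb4 fell from 2.95 ± 0.355 to 0.635 ± 0.103 and 0.271 ± 0.00711 CPM. Asb13 had 7.24 ± 0.562, 10.4 ± 0.344 and 3.43 ± 0.264 CPM, so that it rose with the joint treatment (0.52, adjusted p = 0.00269) and fell with R848 (-1.08, adjusted p = 1.69e-06).

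Genes that STATs are known to turn on split in direction, with 6 of 15 higher and 8 lower in each of these comparisons, or 7 to 8 and 9 to 6 with centred libraries. Bcl3, a nuclear partner of NF-κB, rose from 11.6 ± 0.804 to 185 ± 0.546 and 262 ± 23.5 CPM, and Nfil3, a transcription factor, from 5.76 ± 0.432 to 29.2 ± 2.32 and 81.3 ± 6.33 CPM. Ccnd1, which encodes cyclin D1, fell from 957 ± 4.38 to 124 ± 11.1 and 10.5 ± 0.234 CPM. Of 8 listed SOCS substrates outside the JAK-STAT pathway 7 were tested, with 2 higher and 3 lower with the joint treatment and 3 higher and 2 lower with R848, or 2 to 2 and 5 to 2 with centred libraries. Irs2, an adaptor of the insulin receptor, fell from 26.9 ± 1.68 to 7.41 ± 1.86 CPM with the joint treatment (log2 -1.88, adjusted p = 2.03e-08) and rose to 53.9 ± 5.47 CPM with R848 (1.00, adjusted p = 1e-05). Ptk2, the focal adhesion kinase, fell from 46.1 ± 0.399 to 21.6 ± 2.04 and 8.06 ± 0.127 CPM, and Rela, the p65 subunit of NF-κB, rose from 112 ± 4.27 to 206 ± 7.13 and 249 ± 7.84 CPM. With PNPi+dG/rG alone, 0 JAKs, 0 STATs and 0 ligands passed in limma, while 1 receptor and 1 other brake were lower and 2 STAT response genes were higher. Among all tested genes 0.409% were higher and 0.392% lower in that comparison, so the 0 calls do not set these lists apart.

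The genes most like each member that changed at least 2-fold were found as the tested genes with the smallest root mean square difference over the 4 log2 fold changes against vehicle. Nearest to Socs1 were Tnf, a leading inflammatory cytokine, at 0.22, the survival gene Bcl2a1a at 0.34 and Tnfsf15, a cytokine of the TNF family, at 0.36. Tnf stood at a log2 fold change of 2.20 with polyU and 0.59 with PNPi+dG/rG, and at 5.91 with the joint treatment and 5.27 with R848. Socs3 had no close match, the nearest being Mir155hg, the host gene of miR-155, at 0.68, Edn1 (endothelin) at 0.76 and Cxcl2, a neutrophil chemokine, at 0.80. Nearest to Cish were Slc7a11, a cystine transporter, at 0.26, Il4i1 at 0.44 and Inhba at 0.46, each of which rose more with R848 than with the joint treatment. Socs6 lay within 0.02 to 0.04 of Git1, Smc3 and Nolc1, among many genes with modest falls.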

How the data were processed

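RNA-Seq of mouse BMDMs gave 10 libraries in 5 groups, with groups and replicate numbers taken from the sample labels. The authors mapped reads to GRCm38 with STAR 2.27a (demultiplexed with bcl2fastq 2.19.1.403), counted them per gene and deposited values in CPM with an offset of 0.0001 added to each. CPM is a share of the library, so strong induction of a few genes lowers all others. Whether reads shared by overlapping genes were split is not given in the sources used here.

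Depth was worked out from the step between low CPM values, of which 100% were whole multiples. The deposited CPM values are normalized, so no count model was fitted. Reads worked out from them were used for the counting intervals of Socs2 and Cish. limma 3.58.1 (R 4.3.3, statmod 1.5.0) was fitted to log2 of the deposited values over all 5 groups, with trend and robust eBayes. Genes had to reach 1 CPM in at least 2 libraries, which left 11978, with Benjamini-Hochberg adjustment over all of them in each of 8 comparisons. A gene was called at an adjusted p under 0.05. The fit was tested on simulated data in which few genes changed, as many up as down. That test does not cover a shift of the median gene as large as in these data. Intervals on reads cover counting error only. The 2 libraries of a group differed by more than that. Beyond a limit that 5% of genes would pass under counting error alone lay 15.81% of 10533 genes with the joint treatment, the lowest share. The highest was 26.25% of 10963 genes with polyU. The intervals are thus too narrow for the spread between libraries. Positions are from GENCODE M21 on GRCm38, promoter sequences from RefSeq, and 55394 identifiers had a symbol.

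The members and lists were chosen with earlier results of these data known. All 8 members were described. From each list the genes with the largest called rise and fall in PNPi+dG/rG+polyU or R848 against vehicle, and between the 2, were named, and lists of up to 8 genes could be named whole. A listed gene is not reported here and was left out of the list counts. Alternatives were pseudocounts of 0.1 and 1 CPM, no filter, a filter on the mean, centring on the median gene, plain eBayes, a fit of the compared groups only, a replicate block and leaving out each library. Tables were handled in Python 3.11.15 with pandas 2.3.3, numpy 2.4.6 and matplotlib 3.10.9.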

Additional observations from a re-analysis of the deposited data

Results flagged for a closer look

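The effect of PNPi+dG/rG differed between BMDMs with and without polyU for 6 of the 7 tested SOCS genes, by the interaction term of the limma fit, which was called higher for 11.8% and lower for 38.9% of all tested genes. On the log2 scale the interaction was 4.54 for Socs3, 3.40 for Cish and 2.92 for Socs1, and for each of these genes both PNPi+dG/rG+polyU libraries lay above both libraries of polyU alone. The smaller interactions were 0.33 for Socs7, -0.54 for Socs5 and -0.58 for Socs6. Those of Socs5 and Socs6 were not called with centred libraries, and that of Socs7 was lost in most fits that left out 1 library.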

How the results depend on the processing

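Of 700 recomputed values for 56 gene and comparison pairs under 18 alternatives, 643 kept their direction and their side of the threshold and 57 did not. Against vehicle, Socs1, Socs3 and Cish were higher and called in every alternative run for the joint treatment (PNPi+dG/rG+polyU) and for R848. Centring turned the sign of Socs1 (-0.12) and Socs6 (-0.10) between the joint treatment and R848, of Socs4 with R848 (0.40), between the joint treatment and polyU (0.23) and in the interaction (0.16), of Socs5 with PNPi+dG/rG (-0.027) and between R848 and polyU (0.15), and of Socs7 with polyU (-0.034), with R848 (0.033) and between R848 and polyU (0.067). Centring sets the median gene to the same level in each library, which moves each gene by the shift of that median. When single libraries were left out, values near 0 changed sign, with ranges of -0.093 to 0.025 for Socs4 between the joint treatment and R848, -0.079 to 0.039 against polyU and -0.018 to 0.046 between R848 and polyU. The ranges were -0.025 to 0.036 for Socs5 with PNPi+dG/rG and -0.23 to 0.13 between the joint treatment and R848, -0.10 to 0.21 for Socs7 with PNPi+dG/rG and -0.14 to 0.16 with polyU, and -0.16 to 1.39 for Cish with polyU. The number of members changed by PNPi+dG/rG ran from 0 to 1, the 1 being Socs3. Over all genes, that comparison had 96 calls, 64 without a filter, 13 with plain eBayes, 48 and 10 without PNPi+dG/rG replicate 1 and 2, and 63 without vehicle replicate 1. The interaction of Socs7 was also lost without a filter (adjusted p = 0.0969), and those of Socs7 (0.135) and Socs5 (0.0748) with plain eBayes. Socs1 was called between the joint treatment and R848 with a pseudocount of 1 CPM (adjusted p = 0.0289) and in the fit of the compared groups (0.000997). The cause of these changes was not tested.

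The values showed no clear pairing by replicate number, but they cannot tell whether same-numbered libraries came from the same mouse. Deviations of same-numbered libraries from their group means correlated, over 8459 genes, at a median of -0.023 across 10 group pairs (-0.286 to 0.109). A fit with a replicate block gave 4 members changed by polyU, 0 by PNPi+dG/rG, 7 by the joint treatment, 7 by R848, and 3 between the last 2, and the block changed no call of a member.

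Depth limits Socs2, at 0 to 5 reads a library outside R848, and the vehicle level of Cish, at 3 and 4 reads.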
